A study of Mus musculus with 6 samples.

Results

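The genes described here are p53 (Trp53) and a set of genes that p53 is known to switch on or that feed back on it, 36 genes listed by name and role. A gene was taken from the probe sets whose platform annotation gives that symbol alone, and where several did so the probe set with the highest mean over all 6 arrays was used. By this rule 33 of the 36 were measured among 18193 genes in all. Trp53 itself, the pore-forming death gene Bax and the secreted stress factor Gdf15 were not analysed here. The level of the p53 transcript is therefore unknown in what follows, and p53 protein, which is controlled mainly by its stability, is not seen by an expression array.

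Gene expression had been measured on Affymetrix 3' arrays in cells of mouse skin tumours, with 1 array for each of 3 EKO and 3 WT mice. EKO mice are deficient in E-FABP, the epidermal carrier protein for fatty acids that Fabp5 encodes, and WT mice are wild type. Both groups had been given DMBA and TPA for 5 months. DMBA is a carcinogen that damages DNA and initiates tumours, and the phorbol ester TPA then makes the initiated cells grow. No tumour or skin without this treatment was among the arrays, so all values compare treated tumours with treated tumours. The labels do not state the strain, sex, age or the way in which Fabp5 was disrupted, nor the stage of the tumours. Keratinocytes are named as the cell type, although the design describes whole tumours digested to single cells. The keratinocyte markers Krt5, Krt14, Krt15, Itga6, Itgb4, Cdh1 and Perp were all far above the lower quartile of the arrays, and markers of other cell types were measurable too.

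The 6 arrays had medians between 5.4 and 5.43 on the log2 scale and correlated pairwise with r between 0.987 and 0.994. Fabp5 read 8.20, 8.30 and 7.98 in EKO replicates 1, 2 and 3, against 14.82, 14.94 and 14.80 in WT replicates 1, 2 and 3, so all 6 arrays matched their labels. Fabp5 was also the 1 gene of 18193 that passed the test for a difference between the groups (limma with Benjamini-Hochberg adjustment over all genes, adjusted p under 0.05), which is 0.0055% of the genes tested. None of the 33 p53 genes passed, and their adjusted p ranged from 0.523 to 0.999. The differences below are log2 values of EKO minus WT, given as measurements with their errors and not as calls. Their precision is limited by having 3 arrays in each group.

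The p53 protein is a transcription factor that is kept low by the ubiquitin ligase Mdm2 and becomes stable after DNA damage, oncogene activity or other stress. It then binds response elements near its target genes, whose products stop the cell cycle, repair DNA, adjust metabolism or start apoptosis, and 1 of the targets is Mdm2 itself, which closes a feedback loop. In the mouse epidermis p53 restrains the conversion of benign papillomas into carcinomas, and its relative p63 maintains the basal layer and drives some of the same genes.

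Response elements of p53 are shown first, since a direct target is defined by p53 binding near it. RefSeq promoters of build GRCm38.p6, from 250 bases before to 50 bases after each annotated start, were at hand for 28 of the 36 genes, with 40 starts among them. They were searched for the p53 response element, a pair of the p53 consensus decamers of 10 bases each, directly adjacent or 1 base apart, with the invariant C and G of both kept and at most 3 mismatches in all. The consensus is its own reverse complement, so both strands are covered. Of the 28 genes 8 had such an element (28.6%), against 3.27% of all 27025 genes with a promoter. Counted by start, 9 of the 40 promoters held it, against 2.82% of all 32851. The windows at the Aen starts overlap and hold the same element, which is counted for each. A match describes letters and does not show that p53 binds there, and sites outside these windows were not looked for.

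The closest matches, with 1 mismatch each, lay in the promoters of Ccng1, which encodes cyclin G1, and Cdkn1a, which encodes the cyclin-dependent kinase inhibitor p21. Both promoters are printed on the strand of the gene with the element in capitals, followed by that of Aen, a p53-induced nuclease, which had 3 mismatches. These 3 were chosen because Ccng1 and Aen are among the genes with the largest differences between the groups, while Cdkn1a, the best known target, had a small one.
Ccng1, chr11:40755237-40755536, minus strand: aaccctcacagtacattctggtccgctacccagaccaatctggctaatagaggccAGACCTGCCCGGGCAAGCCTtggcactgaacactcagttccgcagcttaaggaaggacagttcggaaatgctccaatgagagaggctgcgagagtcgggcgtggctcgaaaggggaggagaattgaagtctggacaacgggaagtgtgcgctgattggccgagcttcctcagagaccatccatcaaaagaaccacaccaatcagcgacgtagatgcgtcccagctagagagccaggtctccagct
Cdkn1a, chr17:29090729-29091028, plus strand: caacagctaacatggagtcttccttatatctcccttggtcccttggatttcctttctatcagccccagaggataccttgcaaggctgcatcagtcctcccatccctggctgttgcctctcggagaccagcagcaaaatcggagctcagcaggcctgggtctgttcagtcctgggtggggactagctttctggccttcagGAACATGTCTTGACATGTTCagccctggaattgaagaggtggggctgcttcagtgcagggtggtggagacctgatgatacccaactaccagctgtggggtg
Aen, chr7:78895808-78896107, plus strand: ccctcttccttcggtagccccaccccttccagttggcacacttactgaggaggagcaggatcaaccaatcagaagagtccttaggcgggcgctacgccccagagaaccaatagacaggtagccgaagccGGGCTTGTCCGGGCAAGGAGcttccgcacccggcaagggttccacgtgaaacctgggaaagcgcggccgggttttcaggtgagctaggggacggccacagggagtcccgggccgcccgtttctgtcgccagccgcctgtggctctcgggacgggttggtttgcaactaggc

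The element begins at position -195 from the annotated start in Ccng1, at -51 from the upstream of the Cdkn1a starts and at -121 from the downstream of the Aen starts. The other measured genes with an element were Trp73, Bbc3 and Sesn1, each at 1 of its annotated starts. Their elements, with the pair of consensus decamers in capitals, are given for comparison.
Trp73, in the promoter at chr4:154097124-154097423, minus strand: GGGCAAGCTGAGGCCTGCCC
Bbc3, in the promoter at chr7:16309333-16309632, plus strand: CTGCAAGCCCCGACTTGTCC
Sesn1, in the promoter at chr10:41887189-41887488, plus strand: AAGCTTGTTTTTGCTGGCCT

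The remaining 2 of the 8 genes, Trp53 and Bax, have no expression value here. The 6 measured genes with an element did not move as a block. Ccng1 (difference 0.64) and Aen (0.45) had higher means in EKO tumours, Cdkn1a was at 0.18, Sesn1 at 0.02, Trp73 at 0.01 and Bbc3 at -0.07.

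Across the 33 measured genes, 24 had a higher mean in EKO tumours and 9 a lower one, where 50% of all genes had a higher mean. Their median difference was 0.14, and that of all 18193 genes was 0.00014. An unadjusted p under 0.05 was found for 7 members (background 7.13%), all with a higher EKO mean (Ddit4, Zmat3, Aen, Plk2, Ccng1, Ei24 and Apaf1). Of all genes, 3.44% had such a p with a higher EKO mean and 3.7% with a lower one. The 3 EKO values lay above all 3 WT values for 8 members (background 5.78%) and below them for 2 (background 6.19%). The cumulative plot of differences shows the members beside all genes. Most differences were small, with a median size of 0.18, against 0.09 over all genes. By more than 0.5 differed 4 of the 33 members and 725 of the 18193 genes. The members also varied more within the groups, with a median SD of 0.18, against 0.14 over all genes. The values depend on single arrays. With 1 array left out, the difference of 24 members moved by over 1.5 times or changed sign, and it did not for Ddit4, Ccng1, Zmat3, Aen, Plk2, Ercc5, Ei24, Fas and Steap3. The counts moved too: the 7 members became 2 without EKO replicate 1, 3 without EKO replicate 3 and 2 without WT replicate 2. In these settings 5.05%, 6.4% and 5.91% of all genes had such a p. The median was 0.09 without WT replicate 3 and when a gene's probe sets were averaged, and 0.10 without WT replicate 1.

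**Figure D1:**
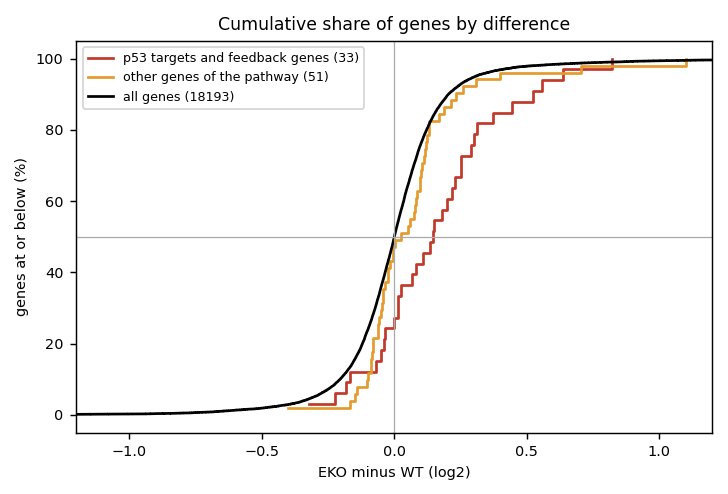
Cumulative share of genes (y axis, %) at or below a given EKO minus WT difference (x axis, log2) for the 33 p53 genes, 51 other genes of the p53 pathway and all 18193 genes. The line of the p53 genes crosses 50% at 0.14, right of the lines of the other pathway genes (0.03) and of all genes (0.00014).

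By array, the median over the p53 genes of the deviation from each gene's mean over the 6 arrays was 0.09, 0.01 and 0.09 in EKO replicates 1, 2 and 3, against -0.09, -0.05 and -0.05 in WT replicates 1, 2 and 3. The groups did not overlap in this median, and EKO replicate 2 was the EKO array nearest to the WT arrays. The same median over all genes was 0.0051, -0.0082 and -0.00195 in EKO replicates 1, 2 and 3. It was 0.013, -0.0071 and -0.010 in WT replicates 1, 2 and 3. The separation of the member medians was not tested. Of the 8 members whose EKO values all lay above the WT values, 7 had their lowest EKO value in replicate 2. Among the 1051 genes of the whole array with that separation, 47.2% had it there. The heat map of all members by array shows how few of them separate the groups strongly.

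**Figure D2:**
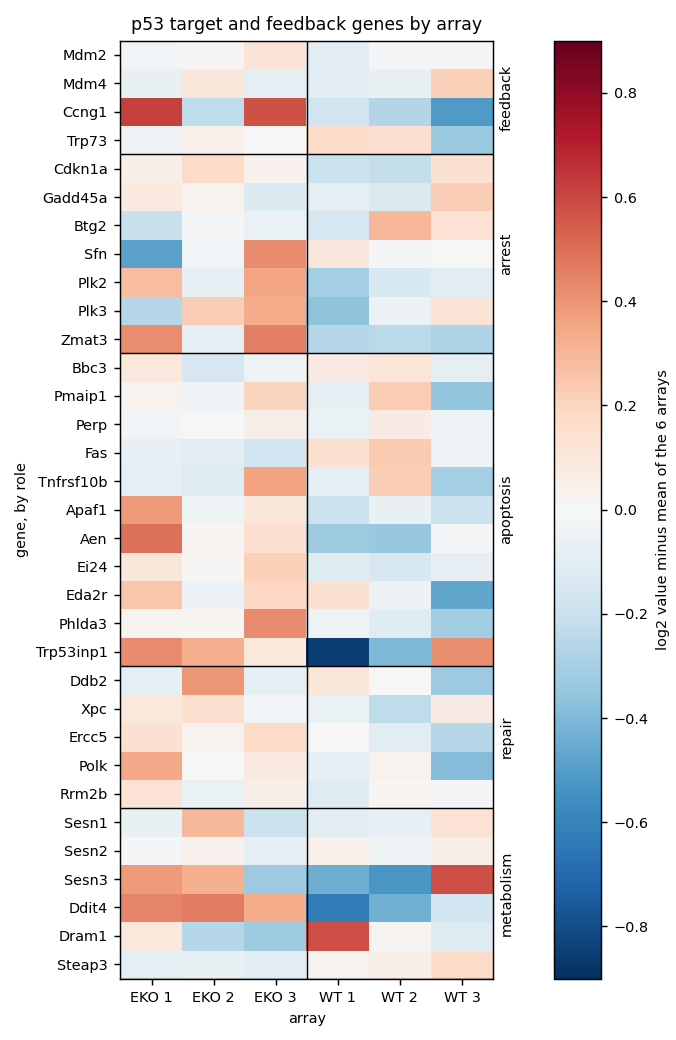
Heat map of the 33 measured p53 genes (rows, by role) in the 3 EKO and 3 WT arrays (columns). Colour gives the log2 value minus the gene's mean over the 6 arrays, red above and blue below. Ccng1 and Zmat3 are red in EKO 1 and EKO 3 but not in EKO 2, Ddit4 is red in all EKO arrays, and Trp53inp1 and Sesn3 are red in WT 3 as well as in EKO 1 and EKO 2.

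The genes of feedback on p53 and of its family had their largest difference in Ccng1. Cyclin G1 is a p53 target that recruits a phosphatase to Mdm2 and so modulates p53 itself. It read 11.11, 10.27 and 11.07 in EKO replicates 1, 2 and 3, against 10.32, 10.23 and 9.99 in WT replicates 1, 2 and 3. EKO replicates 1 and 3 were high, and EKO replicate 2 lay among the WT values, so the groups overlapped. The difference was 0.64 (SE 0.231, adjusted p = 0.655), a 1.55-fold higher mean in EKO tumours. The other probe sets of Ccng1 had differences of 0.45 and 0.59, with EKO replicate 2 again the low EKO array. Without that array the difference of Ccng1 was 0.91 (SE 0.126, adjusted p = 0.0844, with a range from 0.0844 to 0.998 over the alternatives). Leaving out the low EKO array raises the difference by itself, and 42 of all genes passed in that setting.

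Mdm2, the ubiquitin ligase that marks p53 for breakdown, read 8.89, 8.93 and 9.03 in EKO replicates 1, 2 and 3, against 8.81, 8.90 and 8.93 in WT replicates 1, 2 and 3. These ranges overlapped, and the difference was 0.07 (SE 0.0842). Mdm4, the partner of Mdm2 that blocks the activating domain of p53, averaged 8.21 ± 0.103 in EKO and 8.24 ± 0.170 in WT tumours (SD, n = 3 each). Trp73, the p53 relative p73, averaged 6.38 ± 0.0392 in EKO and 6.37 ± 0.283 in WT tumours. Mdm2, although a target of p53, thus showed no separation of the groups beside that of other targets. The dimmer Mdm2 probe sets had differences of -0.04 and -0.09, opposite in sign to the one used.

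Among the 7 genes of cell cycle arrest and growth restraint, Zmat3 and Plk2 separated the groups and Cdkn1a did not. For Zmat3 and Plk2 each EKO value lay above each WT value, as for 5.78% of all genes. Zmat3, an RNA-binding zinc finger protein that p53 induces and that restrains tumour growth in mice, read 8.58, 8.07 and 8.62 in EKO replicates 1, 2 and 3, against 7.91, 7.92 and 7.88 in WT replicates 1, 2 and 3. Its WT values were nearly equal, with an SD of 0.0178, whereas the EKO values had an SD of 0.303. The lowest EKO value lay 0.16 above the highest WT value. The difference was 0.52 (SE 0.151, adjusted p = 0.621), a 1.44-fold higher mean. Without EKO replicate 2 it was 0.70 (SE 0.0893), with the smallest adjusted p of any member under any alternative, 0.0723 (range 0.0723 to 0.998 for Zmat3). That array held the low EKO value of Zmat3, so leaving it out raises the difference by itself.

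Plk2, a polo-like kinase that p53 induces and that acts at centrosomes, read 9.91, 9.56 and 9.99 in EKO replicates 1, 2 and 3, against 9.33, 9.49 and 9.53 in WT replicates 1, 2 and 3. The gap between the groups was only 0.03, set by EKO replicate 2 and WT replicate 3. The difference was 0.37 (SE 0.133, adjusted p = 0.653). Its relative Plk3 had a difference of 0.20 (SE 0.187) with overlapping groups.

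Cdkn1a, whose product p21 carries out much of the p53-dependent arrest, read 11.27, 11.38 and 11.24 in EKO replicates 1, 2 and 3, against 11.02, 10.99 and 11.35 in WT replicates 1, 2 and 3. WT replicate 3 reached the EKO values, so the groups overlapped. The difference was 0.18 (SE 0.117, adjusted p = 0.792), and the second Cdkn1a probe set gave 0.08. Sfn, which encodes the epithelial cell cycle inhibitor 14-3-3 sigma, averaged 10.99 ± 0.452 in EKO and 11.04 ± 0.0644 in WT tumours. Its EKO values spread over 10.54, 10.99 and 11.44 in replicates 1, 2 and 3. Gadd45a, a stress protein of growth arrest and repair, differed by -0.0018 (SE 0.120), and Btg2, an antiproliferative early response gene, by -0.18 (SE 0.130).

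Of the genes of apoptosis and survival signalling, 9 of 11 had a higher mean in EKO tumours (50% of all genes). All EKO values lay above the WT values for 4 (5.78% of all genes) and below them for 1, Fas (6.19% of all genes). Aen, a nuclease of DNA breakdown in apoptosis, read 9.19, 8.71 and 8.85 in EKO replicates 1, 2 and 3, against 8.38, 8.36 and 8.68 in WT replicates 1, 2 and 3. The lowest EKO and the highest WT value were 0.03 apart. The difference was 0.45 (SE 0.152, adjusted p = 0.630). All 4 Aen probe sets had a higher EKO mean, with differences between 0.24 and 0.45.

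Apaf1, the scaffold of the apoptosome, read 7.65, 7.24 and 7.38 in EKO replicates 1, 2 and 3, against 7.08, 7.21 and 7.08 in WT replicates 1, 2 and 3. The groups were just separate, and the difference was 0.30 (SE 0.122). The second Apaf1 probe set, much dimmer, differed by -0.21, so the direction of Apaf1 depends on the probe set. Its difference was 0.18 without EKO replicate 1 and 0.04 with averaged probe sets. Ei24, a membrane protein of the endoplasmic reticulum induced by p53, averaged 10.58 ± 0.0989 in EKO tumours, against 10.36 ± 0.0360 in WT tumours, which is a difference of 0.22 (SE 0.0868). Phlda3, an inhibitor of the survival kinase Akt, averaged 9.68 ± 0.235 in EKO tumours, against 9.37 ± 0.139 in WT tumours, which is a difference of 0.31 (SE 0.139). Both had every EKO value above every WT value, but the difference of Phlda3 was 0.18 without EKO replicate 3.

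The groups overlapped for the activators of mitochondrial apoptosis. Bbc3 encodes Puma and Pmaip1 encodes Noxa. Bbc3 had a difference of -0.07 (SE 0.101) and Pmaip1 of 0.13 (SE 0.154). Perp, a p53 and p63 target that is also a component of desmosomes in the epidermis, averaged 14.05 ± 0.0378 in EKO and 14.03 ± 0.0713 in WT tumours. Its values lay near the top of the scale of the arrays. The death receptor gene Tnfrsf10b had a difference of 0.11 (SE 0.179), and Eda2r, a receptor of ectodysplasin A2, one of 0.25 (SE 0.167).

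Fas, the death receptor of Fas ligand, went the other way. It read 5.94, 5.92 and 5.84 in EKO replicates 1, 2 and 3, against 6.16, 6.24 and 5.96 in WT replicates 1, 2 and 3. Each EKO value was below each WT value, by 0.02 at the closest, and the difference was -0.22 (SE 0.0994, adjusted p = 0.704). Dram1, a lysosomal protein of autophagy, also had a lower EKO mean (difference -0.32, SE 0.202), with values of 8.16, 7.81 and 7.74 in EKO replicates 1, 2 and 3, against 8.64, 8.09 and 7.95 in WT replicates 1, 2 and 3. WT replicate 1 was the high array there, and the groups overlapped. Without it the difference of Dram1 was -0.11.

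Macrophage and dendritic cell markers were lower in the same direction. All 8 of 8 had a lower EKO mean, where 9088 of all 18193 genes did. An unadjusted p under 0.05 was found for 3 of these markers, and 0 passed adjustment. Of all genes, 3.7% had such a p with a lower EKO mean. The summed signal of the 8 markers on the log2 scale was 11.77, 11.40 and 11.80 in EKO replicates 1, 2 and 3. It was 12.19, 11.84 and 12.16 in WT replicates 1, 2 and 3, and no marker was below the lower quartile throughout. Within the groups the order differed, since this signal was lowest in replicate 2 of each group, and Fas and Dram1 in replicate 3. Dram1 and the marker signal were both highest in WT replicate 1, and Fas in WT replicate 2. Their part in the Fas and Dram1 values was not tested. In such bulk samples fewer cells of a type and less RNA per cell cannot be told apart.

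**Figure D3:**
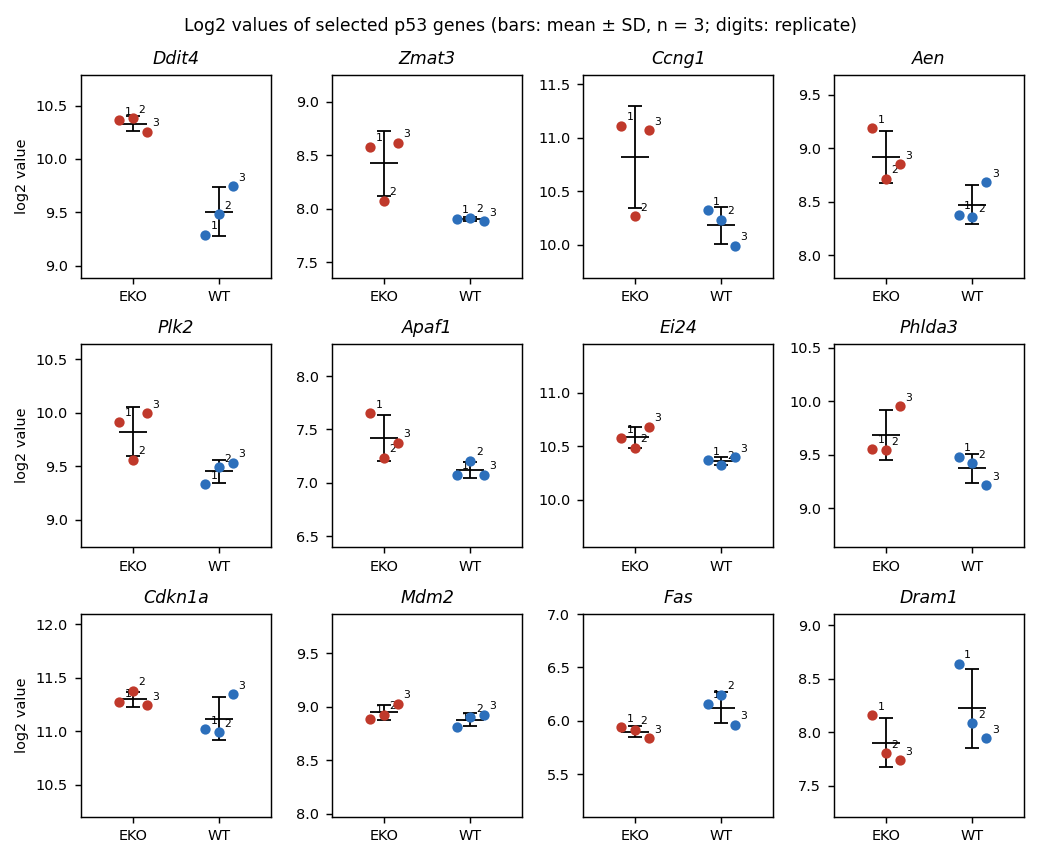
Log2 values (y axis, the same span in each panel) of 12 p53 genes in EKO and WT tumours. Points are arrays with their replicate number, and bars give mean ± SD (n = 3). Ddit4 shows the widest gap between the groups, EKO replicate 2 sits near the WT values for Zmat3, Ccng1 and Plk2, and Cdkn1a, Mdm2 and Dram1 overlap.

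All 5 genes of DNA repair and nucleotide supply had higher means in EKO tumours (50% of all genes), by small amounts. Ercc5, an endonuclease of nucleotide excision repair, read 8.54, 8.43 and 8.57 in EKO replicates 1, 2 and 3, against 8.40, 8.30 and 8.14 in WT replicates 1, 2 and 3. It was the 1 gene of these 5 with each EKO value above each WT value (5.78% of all genes). Its difference was 0.23 (SE 0.0993, adjusted p = 0.702). A second, dim Ercc5 probe set differed by -0.04, and the average of both by 0.09. Polk, a polymerase that copies past bulky DNA adducts, had a difference of 0.29 (SE 0.142). The damage recognition genes Ddb2 and Xpc differed by 0.15 (SE 0.172) and 0.14 (SE 0.106), and Rrm2b, the p53-induced subunit of ribonucleotide reductase, by 0.08 (SE 0.0898). These 5 genes had a median difference of 0.15. Adducts of DMBA are repaired by nucleotide excision, and no time point near a DMBA dose is among the arrays.

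The genes of metabolism, autophagy and secretion held the largest difference of all members. Ddit4, also called Redd1, restrains the growth kinase mTORC1 and responds to hypoxia, glucocorticoids and nutrient stress as well as to p53. It read 10.36, 10.38 and 10.25 in EKO replicates 1, 2 and 3, against 9.29, 9.48 and 9.75 in WT replicates 1, 2 and 3. All EKO values were high and close together, and the lowest lay 0.51 above the highest WT value. The difference was 0.82 (SE 0.127), a 1.77-fold higher mean in EKO tumours. Unlike most other members with a higher mean, Ddit4 was not lowest in EKO replicate 2, and it kept a difference between 0.72 and 0.94 whichever array was left out. Its unadjusted p was among the smallest 0.0495% of all genes, yet adjusted over them it did not pass (adjusted p = 0.523, range 0.0914 to 0.998 over the alternatives).

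The promoter of Ddit4, printed because it belongs to the member with the largest difference, held no p53 response element within the window by the search above. The letters ACGTG, a form of the core of the hypoxia response element, occur in it once and are in capitals. Other forms of that core were not searched for. On either strand the letters ACGTG occur in 19.6% of all promoters and in 11 of the 40 promoters of the p53 genes. The E-box CACGTG contains them.
Ddit4, chr10:59951721-59952020, minus strand: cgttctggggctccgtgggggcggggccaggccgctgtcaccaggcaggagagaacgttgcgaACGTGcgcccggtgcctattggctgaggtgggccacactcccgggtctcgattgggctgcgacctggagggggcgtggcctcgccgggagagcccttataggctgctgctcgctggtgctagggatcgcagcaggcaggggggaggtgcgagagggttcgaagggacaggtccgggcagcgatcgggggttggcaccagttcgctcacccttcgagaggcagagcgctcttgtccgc

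The sestrins, which limit oxidative damage and mTORC1, showed no separation of the groups with the probe sets used. Sesn1 differed by 0.02 (SE 0.142), Sesn2 by -0.04 (SE 0.0820) and Sesn3 by 0.25 (SE 0.324). A dimmer Sesn2 probe set read 5.94, 5.98 and 5.99 in EKO replicates 1, 2 and 3, against 6.23, 6.26 and 6.33 in WT replicates 1, 2 and 3, a difference of -0.30 with no overlap, which the brighter probe set did not share. Steap3, a ferrireductase, averaged 6.17 ± 0.0164 in EKO and 6.34 ± 0.0772 in WT tumours, a difference of -0.17 (SE 0.0814) with each EKO value below each WT value.

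**Figure D4:**
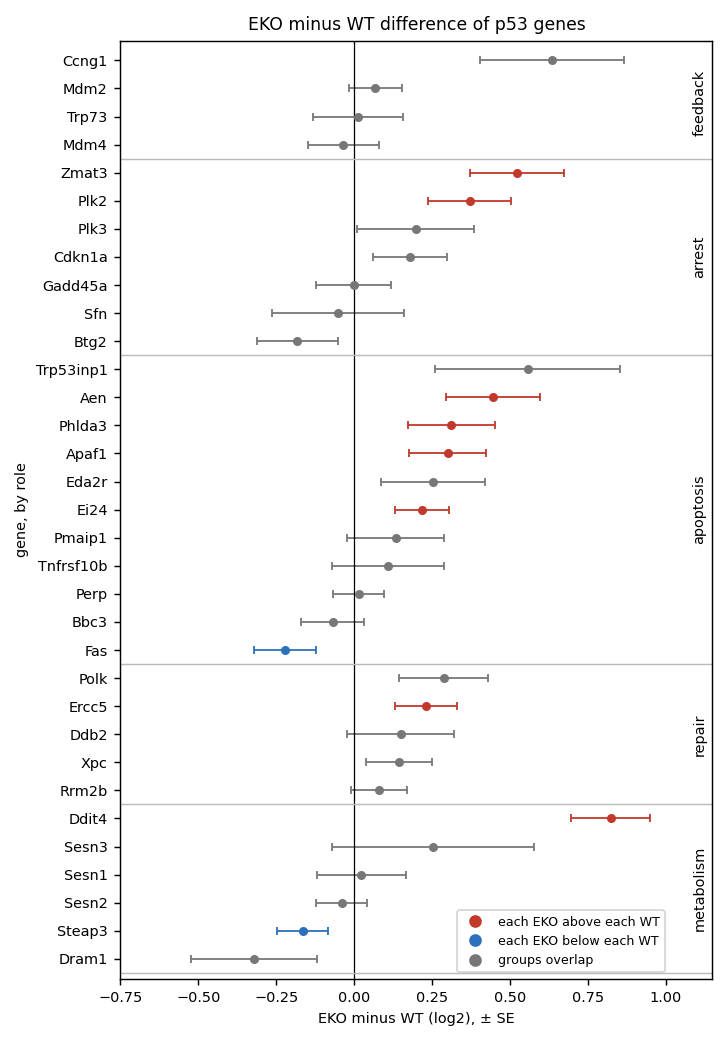
EKO minus WT difference (x axis, log2, bars ± SE from limma) of the 33 measured p53 genes, grouped by role and sorted within each. Red marks the 8 genes with each EKO value above each WT value, blue the 2 with each EKO value below, and grey the rest. Ddit4 lies farthest right at 0.82, and Dram1 farthest left at -0.32 (-0.11 without WT replicate 1).

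Trp53inp1 and Sesn3 varied more between WT tumours than between the groups. Trp53inp1 encodes a nuclear protein that promotes p53-dependent apoptosis. It read 10.94, 10.83 and 10.61 in EKO replicates 1, 2 and 3, against 9.67, 10.11 and 10.93 in WT replicates 1, 2 and 3. WT replicate 3 was as high as the EKO arrays, so that the mean difference of 0.56 (SE 0.297, adjusted p = 0.752) rested on WT replicates 1 and 2. It was 0.90 without WT replicate 3 (adjusted p = 0.196, range 0.196 to 0.998) and 0.27 without WT replicate 1. Sesn3 read 8.40, 8.34 and 7.69 in EKO replicates 1, 2 and 3, against 7.58, 7.50 and 8.60 in WT replicates 1, 2 and 3.

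Hair follicle markers ran in a similar order. Their summed signal was 15.28, 15.17 and 14.38 in EKO replicates 1, 2 and 3, against 12.73, 14.00 and 15.72 in WT replicates 1, 2 and 3 on the log2 scale. All 6 of 6 had a higher EKO mean (50% of all genes) and 0 had an unadjusted p under 0.05 (7.13% of all genes). None was below the lower quartile throughout. Ddit4 followed these markers in the order of the WT arrays too, but WT replicate 3, the array highest in hair follicle signal, stayed below all EKO arrays for Ddit4. The part of hair follicle cells in the values of Trp53inp1, Sesn3 and Ddit4 was not tested.

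Several p53 targets are also early genes of stress, among them Btg2, Plk2, Plk3, Gadd45a and Ddit4. Immediate early genes such as Fos and Egr1, which the digestion of tissue can raise, were highest in WT replicate 2. Of 10 such genes 9 had a lower EKO mean (9088 of all 18193 genes). Their summed signal was 12.82 to 13.15 in EKO arrays, against 12.87, 14.03 and 12.83 in WT replicates 1, 2 and 3. Btg2 was highest in that array as well, at 9.58, but Plk2, Plk3 and Ddit4 were not, and Gadd45a was at its lowest there, at 7.68. Their part in the values of Btg2 and of the other members was not tested.

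**Figure D5:**
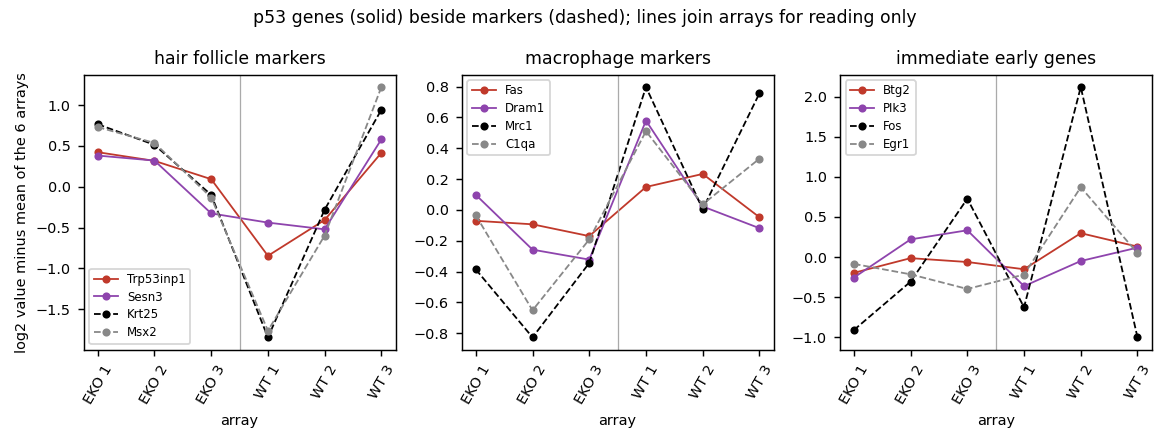
Log2 value minus the mean of the 6 arrays (y axis) by array (x axis) for pairs of p53 genes (solid) and of markers (dashed), with lines joining the arrays for reading only. Left, Trp53inp1 and Sesn3 beside the hair follicle genes Krt25 and Msx2, all high in WT 3; middle, Fas and Dram1 beside the macrophage genes Mrc1 and C1qa; right, Btg2 and Plk3 beside Fos and Egr1, with Fos highest in WT 2.

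Beyond the members, 51 of 55 other genes of the p53 pathway were measured. Of these 27 had a higher and 24 a lower EKO mean, 0 passed the test over all genes, and their median difference was 0.03. An unadjusted p under 0.05 was found for 4 genes, 3 higher and 1 lower, where 7.13% of all genes had one. The 3 EKO values lay above the WT values for 3 of the 51 genes and below them for 2, beside 5.78% and 6.19% of all genes, so these counts were near the background.

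The 10 genes of upstream damage signalling had a median difference of -0.02. Trp53bp1, a protein of double-strand breaks, was at 0.22 (SE 0.116), the nuclease subunit Mre11a at 0.13, the damage kinase Atr at -0.10 and Nbn, the partner of Mre11a, at -0.14. None of the 10 had an unadjusted p under 0.05 by limma (7.13% of all genes). Nbn was the 1 gene among them whose groups did not overlap. Its EKO values lay below its WT values (6.19% of all genes), with a gap of only 0.0059. With averaged probe sets Trp53bp1 was at 0.085, Mre11a at -0.0052 and Atr at 0.092. The activity of these kinases and sensors is not seen by an array.

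Of 13 modifiers and cofactors of p53, Cdkn2a had the largest difference. This locus encodes p19Arf, which holds Mdm2 away from p53, and p16Ink4a, and the probe set does not say which. Cdkn2a read 6.86, 5.91 and 7.03 in EKO replicates 1, 2 and 3, against 5.73, 5.33 and 5.44 in WT replicates 1, 2 and 3. Each EKO value was above each WT value, and EKO replicate 2 was the low EKO array, as it was for Ccng1, Zmat3 and Plk2. The difference was 1.10 (SE 0.285, adjusted p = 0.621). Without EKO replicate 2 it was 1.44 and passed (adjusted p = 0.0314, range 0.0314 to 0.998 over the alternatives), while no p53 member passed under any alternative. Leaving out the low EKO array raises the difference, and in that setting 42 of all genes passed, 38 of them higher in EKO tumours. Ppp1r13l, which encodes the p53 inhibitor iASPP, averaged 9.50 ± 0.0353 in EKO tumours, against 9.27 ± 0.0361 in WT tumours, a difference of 0.23 (SE 0.0771) with no overlap. Trp53bp2, which encodes the activator ASPP2, was at 0.26 and the acetyltransferase Crebbp at 0.12. With averaged probe sets Ppp1r13l was at 0.09, Trp53bp2 at 0.16 and Crebbp at 0.0097.

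The 17 further p53 targets measured had a median difference of 0.10. Igfbp3, a secreted binding protein of insulin-like growth factors, read 10.52, 10.93 and 10.91 in EKO replicates 1, 2 and 3, against 9.97, 10.06 and 10.20 in WT replicates 1, 2 and 3. The groups were 0.31 apart, and the difference was 0.70 (SE 0.134, adjusted p = 0.546). Bid, a death protein cleaved by caspase 8, was at 0.40 (SE 0.205) and Thbs1, which encodes thrombospondin 1, at 0.31. Tap1, a peptide transporter of antigen presentation, had a lower EKO mean (difference -0.40, SE 0.153). Bid ran from 0.26 without EKO replicate 1 to 0.64 without EKO replicate 2. Thbs1 was at 0.17 without EKO replicate 3 and at 0.16 without WT replicate 3. With averaged probe sets Bid was at 0.16 and Tap1 at -0.11.

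Cell cycle genes that p53 lowers through p21 and the DREAM repressor complex had small differences. Of 11 measured, 8 had a lower and 3 a higher EKO mean, the median difference was -0.06, and 0 had an unadjusted p under 0.05. Cdc20, an activator of the anaphase complex, was at 0.19 (SE 0.103), the mitotic kinase Cdk1 at -0.17 (SE 0.150), Top2a, a topoisomerase of dividing cells, at -0.10 and cyclin A2 (Ccna2) at -0.06. Top2a was the 1 gene of the 11 whose groups did not overlap, with each EKO value below each WT value (6.19% of all genes). The gap was only 0.007. With averaged probe sets Top2a was at -0.0095 and Ccna2 at -0.15. Cdk1 ran from -0.29 without WT replicate 3 to -0.04 without EKO replicate 2.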

How the data were processed

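Biotin-labelled cRNA from the tumour cells of 3 EKO and 3 WT mice was hybridised to Affymetrix 3' arrays, per the labels' protocols. RMA and Partek 6.6 are named in the submitters' processing notes for the log2 values that the authors deposited. RMA equalizes the quantiles of the arrays and narrows differences among dim probe sets. The values were used as deposited. They carry no detection calls, so no low-value filter was set, and no member lay below the lower quartile of any array. Of 45101 probe sets 64 controls were left out, and 34945 carried a single symbol, giving 18193 genes. EKO and WT were compared with limma 3.58.1 in R 4.3.3 (lmFit, eBayes, two-sided, Benjamini-Hochberg over all genes, threshold 0.05) without a block. The procedure was tested on simulated data. The planted differences were larger than that of any member, so the smaller sizes reported here were not covered. The labels call the replicates biological. No scan date or batch is stated in the labels, and none was examined.

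All members, Fabp5 and, of each role among the other pathway genes, up to 4 with the smallest unadjusted p were named. Members, roles and lists were chosen with earlier results of these data known. The listed genes of the wider pathway that were not measured are not analysed here. Of the marker lists, keratinocyte (median difference 0.0026), differentiated keratinocyte (0.08), T cell (-0.07), fibroblast (-0.17), endothelium (0.03), skeletal muscle (-1.20) and adipocyte (-0.51) markers also had 0 members past adjustment. The settings varied were the replicate number as a block, a restriction to brighter genes, repeated quantile normalization, centred medians, trend with robust variances, array weights, averaged probe sets, all probe sets tested, a threshold of 0.1, each array left out, and 2 trimmed member lists. Same-numbered arrays deviated from their group means with correlations of -0.07, -0.09 and -0.34, so the numbers were not taken to pair the arrays.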

Additional observations from a re-analysis of the deposited data

How the results depend on the processing

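No p53 gene passed the threshold under any alternative run, and of 489 values of members under 15 alternatives 465 kept their direction. The replicate block, robust variances, the test of all probe sets, the threshold of 0.1 and the restriction to brighter genes cannot change a difference. A reversal was therefore possible only under the other alternatives. With 1 array left out, the genes past the threshold over the whole array numbered 1 to 42 (42 without EKO replicate 2, 2 without WT replicate 2). When all probe sets were tested, 2 passed, both of Fabp5. With 1 array left out, members with an unadjusted p under 0.05 numbered 2 to 8 (4.61% to 9.9% of all genes) and their median difference ran from 0.095 to 0.18. Groups of 3 and 2 arrays are free of overlap more often than groups of 3 and 3. Members without overlap numbered 9 to 12 on the higher side, where all genes gave 9.41% to 13%, and 2 to 3 on the lower side, where all genes gave 9.06% to 13.8%. The median was 0.18 over brighter genes and 0.094 with averaged probe sets, where 5 members had no overlap on the higher side. Of the other pathway genes, 0 to 1 passed with 1 array left out (Cdkn2a, at 1.44 without EKO replicate 2), 2 to 5 had an unadjusted p under 0.05 and 3 to 10 had no overlap on the higher side (6 with averaged probe sets) and 2 to 8 on the lower side. The fit with the replicate block gave 0 members and 1 gene in all past the threshold and changed no call. The same-numbered arrays share only a number.

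The 24 reversals among members were of small differences. Averaged probe sets turned Mdm2 to -0.019, Rrm2b to -0.021, Trp73 to -0.0030 and, outside the members, Mre11a to -0.0052 and Atr to 0.092. Array weights turned Mdm4 to 0.00019, Trp73 to -0.045, Gadd45a to 0.050 and Perp to -0.0017, and repeated quantile normalization turned Trp73 to -0.00040. With 1 array left out, the differences ran from -0.094 to 0.063 for Mdm4, from -0.15 to 0.098 for Trp73, from -0.068 to 0.11 for Gadd45a, from -0.28 to 0.18 for Sfn and from -0.0099 to 0.28 for Pmaip1. They ran from -0.0096 to 0.056 for Perp, from -0.047 to 0.25 for Tnfrsf10b, from -0.012 to 0.24 for Ddb2 and from -0.12 to 0.13 for Sesn1. The cause was not tested.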

Other observations

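Of the 33 measured p53 genes 19 had several probe sets, and for 12 of these all probe sets had a difference of the same sign. The 7 others were Apaf1, Ddb2, Ercc5, Mdm2, Rrm2b, Sesn1 and Trp73. For Rrm2b a dimmer probe set read 4.73, 4.95 and 4.81 in EKO replicates 1, 2 and 3, against 5.03, 5.13 and 4.98 in WT replicates 1, 2 and 3, with no overlap and a difference of -0.22, while the probe set used differed by 0.08. The Sesn3 probe sets gave 0.25 and 0.29, those of Trp53inp1 0.56 and 0.16, and those of Btg2 -0.18 and -0.22.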
